A study of Homo sapiens with 7 samples.

Results

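Of 5782 sites at which the PAX3-FOXO1 fusion was counted in Rh4 cells, 393 lost share of the HA signal both 2 h and 4 h after a degrader of the fusion was added. Members were chosen by the counts themselves. Each library's counts were divided by the library's total in the sites and multiplied by 1000000, which gives a share in CPM (counts per 1000000 counts of that library in the sites), and the 2 columns of each treatment were averaged. A site was a member if its DMSO columns held at least 30 counts in sum and if log2((dTAG mean + 5)/(DMSO mean + 5)) was at most -0.75 at 2 h and at 4 h. Of all sites, 5479 met the count minimum, and the 393 members were 7.17% of these. The other 5086 sites over the minimum are called the other sites below.

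The data were CUT&RUN libraries of Rh4, a rhabdomyosarcoma cell line with the PAX3-FOXO1 fusion. Per the sample titles, the cells expressed PAX3-FOXO1 joined to FKBP, the degron that the degrader binds, and the fusion was located through its HA tag with an antibody. DMSO cells were the control, and the treated cells received 500 nM dTAG47 for 2 h or for 4 h. DMSO, 2 h and 4 h each had 2 crosslinked libraries, and all carried the same FKBP and HA tags. Whether the cells were 1 clone, and whether libraries came from separate cultures, is not given in the labels, so the spread between libraries may be technical.

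PAX3-FOXO1 combines the paired box and homeodomain of PAX3, which bind DNA, with the transactivating end of FOXO1. It is the driver of fusion-positive rhabdomyosarcoma, where it binds mostly at enhancers away from gene starts and keeps genes of the muscle lineage active. dTAG47 brings proteins that carry FKBP to an E3 ubiquitin ligase, and the proteasome then degrades them. In CUT&RUN a nuclease tethered to the antibody cuts out the DNA under the bound protein. A count at a site is thus the sum of cuts at the tagged fusion and of background cuts, and a share shows how a site moved against all other sites in the same library, not how much fusion was left.

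Total counts in the sites ranged from 110440 to 380057 per library, and 3 of the 4 treated columns, all but the 2 h library A, held fewer counts than either DMSO library. The 4 h columns differed by no more than sampling noise over 5575 sites (chi-square per degree of freedom 1.01) and were counted as 1 sample in means and in n, so mean shares at 4 h carry no SD. The edgeR fits below kept them as separate libraries, which enters every SE, call and adjusted p-value. Limits from counts cover counting error only and take reads as independent molecules, which reads without molecular identifiers are not. Every site was 400 bases from its start to its end in hg19.

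The rule drew a corner out of a continuous cloud of sites. Taking each time by itself, 580 sites were at or below the threshold at 2 h and 737 at 4 h. The threshold was met at both times by 393 sites, only at 2 h by 187 and only at 4 h by 344. Both comparisons share the DMSO libraries, so a DMSO value that was high by chance lowers both changes. The mirrored rule, a log2 change of at least 0.75 at both times, was met by 96 sites.

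**Figure D1:**
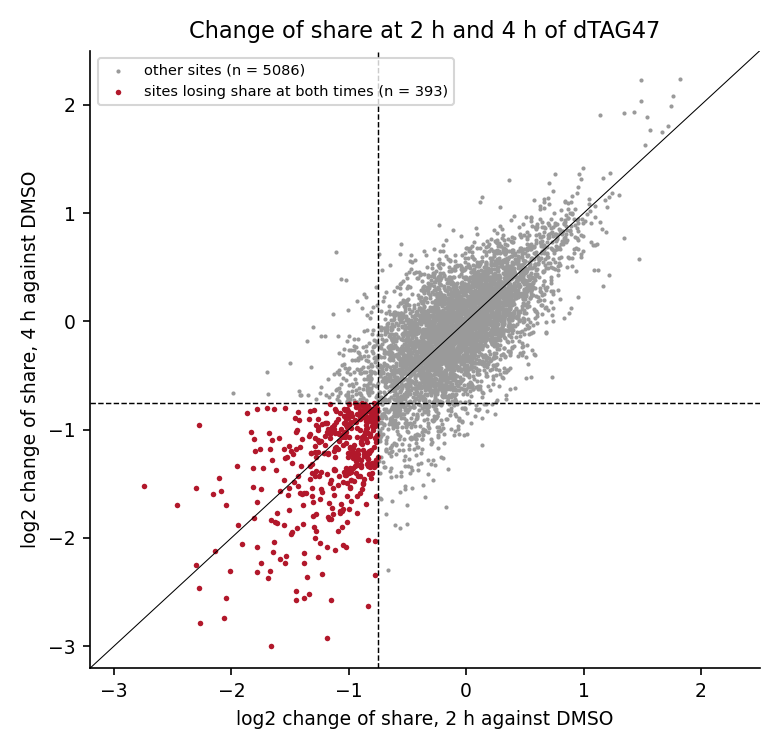
Each point is a site with at least 30 DMSO counts, with its log2 change of share at 2 h on the x axis and at 4 h on the y axis. Red points are the 393 sites at or below -0.75 at both times, marked by the dashed lines, and they run on from the grey cloud of 5086 other sites without a gap.

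In sum the 393 sites held 7.03% of the counts of DMSO library A and 7.51% of those of B. Of the 2 h libraries, A had 3.48% and B 2.99% of its counts there, and the 4 h columns had 2.90% and 2.82%. The members' share was 7.27% ± 0.343 (SD, n = 2) with DMSO, 3.23% ± 0.349 (SD, n = 2) at 2 h and 2.86% at 4 h (n = 1). All 4 treated columns lay below both DMSO libraries, which the rule makes nearly certain. Summed raw counts were 15890 and 28559 in the DMSO pair, 7945 and 3299 in the 2 h pair, and 4384 and 4429 in the 4 h pair.

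Single members were weakly covered after treatment. With DMSO the median member had 34 counts in A and 60 in B, with a range of 10 to 146 in A and of 17 to 244 in B. It had 16 and 7 counts at 2 h and 9 in each 4 h column, with a lowest count of 0 in the 2 h library B and in the 4 h column B. A count of 0 allows a share of up to 27.2 CPM in the 2 h library B and up to 19.1 in the 4 h column B. The median share over the members was 155 CPM with DMSO, 66.9 at 2 h and 58.7 at 4 h, against 127, 124 and 123 over the other sites. In DMSO the members' median was above that of the other sites, and after treatment it was below. The rule chose members on these same columns, which makes this change of order likely.

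**Figure D2:**
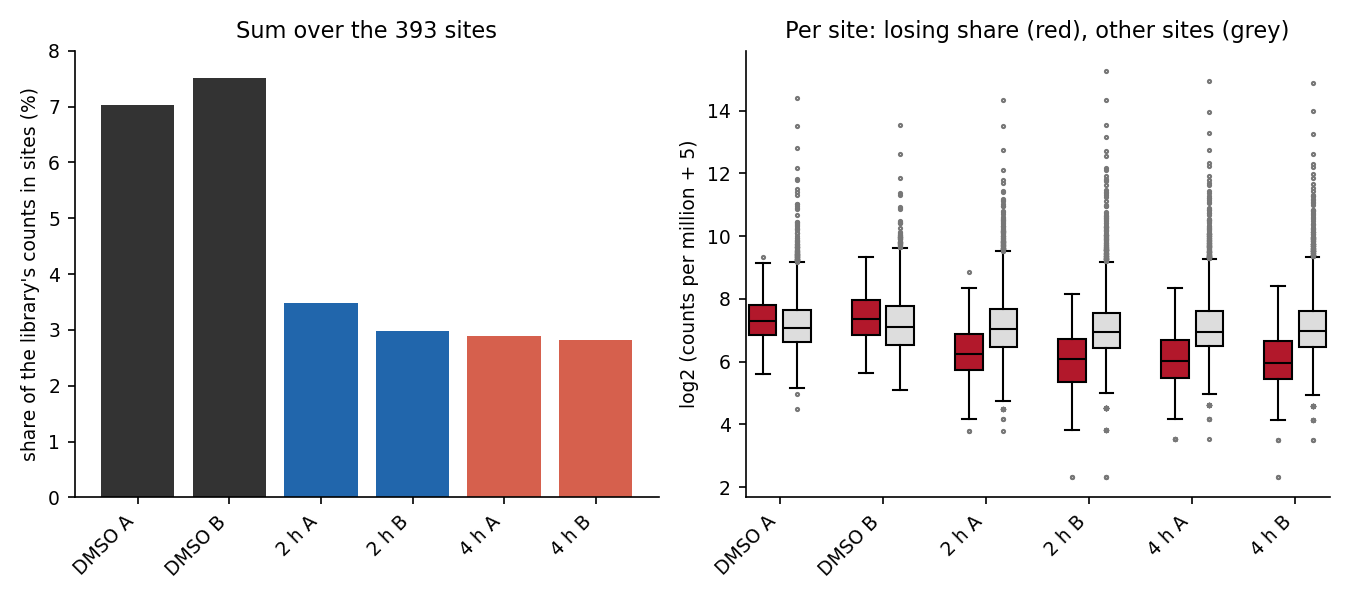
Left, the summed share of the 393 sites in each library, in percent of its counts in sites: 7.03% and 7.51% with DMSO and between 2.82% and 3.48% in the treated columns. Right, log2 (CPM + 5) per site and library (boxes, quartiles with the median; whiskers, 1.5 times the box; points, sites beyond), red for the 393 sites and grey for the 5086 others, which stay level across the libraries.

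The 8 members with the lowest mean of both log2 changes were left with few reads at 4 h. At chr5:42855673-42856073 there were 99 and 163 counts in the DMSO pair, 31 and 4 in the 2 h pair, and 11 and 7 in the 4 h pair. Its share was 433 ± 6.39 CPM (SD, n = 2) with DMSO, 86.0 ± 70.4 (SD, n = 2) at 2 h and 58.7 at 4 h. The 2 h libraries thus differed widely from each other. All treated columns lay below both DMSO libraries, which the rule makes nearly certain. At chr17:27378220-27378620 the counts were 35 and 93 in the DMSO pair, 16 and 2 in the 2 h pair, and 2 and 6 in the 4 h pair. At chr4:80074716-80075116 they were 54 and 104 in the DMSO pair, 10 and 6 in the 2 h pair, and 7 and 6 in the 4 h pair. These sites had log2 changes of share at 4 h of -2.78, -2.74 and -2.47.

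The same group held chr2:225587943-225588343, with a share of 273 ± 60.6 CPM with DMSO, 62.4 ± 1.46 at 2 h (SD, n = 2 each) and 42.4 at 4 h. At chr5:99221852-99222252 the share was 275 ± 1.43 with DMSO, 64.4 ± 14.2 at 2 h (SD, n = 2 each) and 51.7 at 4 h. In both, the DMSO and treated columns did not overlap, which the rule makes nearly certain. The remaining 3 were chr4:104331557-104331957, chr11:20249041-20249441 and chr8:72515578-72515978, which are described below by their strength, their neighbours and their change over time.

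The 5 strongest members in DMSO differed in how much share they lost. The highest DMSO share was at chr9:38228511-38228911, with 146 and 244 counts in the DMSO pair, 104 and 31 in the 2 h pair, and 48 and 53 in the 4 h pair. Its share was 644 ± 2.70 CPM with DMSO and 368 ± 124 at 2 h (SD, n = 2 each), and 328 at 4 h. Its mean share was thus 1.75-fold below DMSO at 2 h and 1.97-fold below it at 4 h. At chr11:20297944-20298344 the share was 1.99-fold and 2.36-fold lower, and at chr6:94922895-94923295 it was 1.94-fold and 2.46-fold lower. Of the 5, the other two lost more. At chr13:29305421-29305821 the share was 536 ± 57.1 with DMSO, 169 ± 46.4 at 2 h (SD, n = 2 each) and 127 at 4 h. At chr4:104331557-104331957 it was 498 ± 15.5 with DMSO, 154 ± 0.440 at 2 h (SD, n = 2 each) and 58.0 at 4 h, an 8.59-fold lower share at 4 h from 115 and 185 DMSO counts. Across the 393 members, DMSO share and mean log2 change had a Spearman rho of -0.0612, a description over sites that share the same libraries.

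Which members differed by more than the spread between libraries was read from edgeR's quasi-likelihood test with TMM scaling and Benjamini-Hochberg adjustment over all tested sites. Because the rule used the same contrasts, these calls describe the members and support nothing. Of the 393 members, 387 passed the filter on low counts, 59 of them only through the DMSO libraries, and 6 did not. At 2 h, 201 members had an adjusted p under 0.05, where 4.07% of all 5575 tested sites were called lower. At 4 h, 260 members did, where 6.73% of all tested sites were called lower. Both calls were made at 177 members, 24 were called only at 2 h and 83 only at 4 h, and 103 had neither. So 103 of the tested members met the rule without a difference that this test could tell from the spread between libraries. With the 4 h columns summed to 1 library, member calls rose slightly at 2 h and fell at 4 h, as did lower calls over all tested sites. DESeq2 called 10 members at 2 h, where 10 of all tested sites were called lower, and 30 at 4 h, where 31 were. Without DMSO library B, far fewer members were called at both times. Without the 2 h library A the same held at 2 h, and without either 4 h column it held at 4 h. With a replicate block by column letter, 112 members were called at 2 h, where 119 of all tested sites were called lower. In the fits with a library left out, far fewer of all tested sites were called lower too, at the times given here.

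The test's values ranged widely among the members. At chr4:104331557-104331957 the relative log2 change was -1.58 (SE 0.23, edgeR adjusted p = 1.52e-05) at 2 h and -2.95 (SE 0.28, edgeR adjusted p = 1.59e-08) at 4 h. At chr9:38228511-38228911, the strongest member, it was -0.63 (SE 0.21, edgeR adjusted p = 0.0592) at 2 h and -0.84 (SE 0.22, edgeR adjusted p = 0.00839) at 4 h. At chr8:98854001-98854401, with 22 and 41 DMSO counts, it was -0.78 (SE 0.38, edgeR adjusted p = 0.24) at 2 h and -0.69 (SE 0.38, edgeR adjusted p = 0.264) at 4 h.

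In raw counts without scaling, the median member had a log2 change of -1.95 at 2 h and -2.27 at 4 h, against -0.93 and -1.08 over all tested sites. The raw fit called 54 members lower at 2 h, where 1.04% of all tested sites were called, and 247 at 4 h, where 6.19% were. Membership rests on the scale. With each library scaled on the 20 sites with the most counts, 2910 sites met the rule, and with TMM factors 277 did, all of them among the 393. The share scale thus picks the sites that were lower than the bulk.

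Members came from all strengths but the very highest. With the sites over the count minimum in 5 equal bands of DMSO share, 44 members were in the lowest band (4.01% of its sites). The next bands held 61 (5.56%), 87 (7.96%), 97 (8.85%) and, in the band above 230 CPM, 104 (9.49%). The pseudocount weighs more on low shares, and its part in this order was not tested. Among the 500 sites with the highest DMSO share there were 40 members, and among the first 100 there was 1, at rank 95. The strongest site of the series, which met the mirrored rule and so gained share, had a DMSO share of 16624 CPM, against 644 for the strongest member. The members' median log2 change was -1.12 in the lowest and -1.02 in the highest band at 2 h, and -1.07 and -1.35 at 4 h, so the order of these bands turned between the times.

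Over the 393 members the difference between the DMSO libraries gave a chi-square per degree of freedom of 1.09, where counting noise alone gives about 1. Over the 4992 other sites with a DMSO sum in the same range (30 to 390), it gave 1.45. The median DMSO sum was 95 counts over the members and 77 over those sites. The rule read the mean of these columns, so the values are a description. The pooled count in the DMSO library B was 1.80 times that in A over the members and 1.68 times over the other sites. Over the 96 sites of the mirrored rule it was 0.954 times, with a median log2 ratio of the shares, B over A, of -0.63, against 0.08 over the members. How much of this came from the choice of sites on means was not tested.

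Members were spread over the genome. They lay on 23 of the 24 chromosomes of the table, with 25 or more each on chromosomes 1 to 7. As a share of the sites over the count minimum, chromosomes 17 and 16 held the most, with 17 of 144 (11.8%) and 17 of 150 (11.3%), followed by chromosome 5 with 33 of 305 (10.8%). Chromosome X held 15 of 153 (9.80%). The lowest shares were on chromosome 19, with 2 of 91 (2.20%), and on chromosome 22, with 2 of 69 (2.90%). Chromosome Y had 0 of 10. These counts are small: the 95% Clopper-Pearson interval was 7.03% to 18.2% for chromosome 17 and 0.267% to 7.71% for chromosome 19. For 23 of the 24 chromosomes the interval held the 7.17% found overall. The exception was chromosome 5, at 7.57% to 14.9%. The 24 intervals take sites as independent of their neighbours and were not adjusted for their number.

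Members stood slightly farther apart from any site than the other sites did. The median distance from a member to the nearest site of any kind was 90.2 kb, start to start, against 68.5 kb for the other sites. Another site lay within 10 kb of 42 members (10.7%) and of 697 other sites (13.7%). The nearest site was over 100 kb away for 180 members (45.8%), against 41.7% of the other sites. The median distance to the nearest fellow member was 2.01 Mb. The closest site to any member was 1735 bases away, so windows of 400 bases did not overlap.

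The share of sites that met the rule varied with the distance from a member. Within 5 kb of a member there were 14 sites over the count minimum, and 6 of them (42.9%) were members. At 5 to 10 kb it was 2 of 30 (6.67%), at 10 to 50 kb 22 of 163 (13.5%), at 50 to 100 kb 21 of 147 (14.3%), and at 100 to 500 kb 60 of 831 (7.22%). Around the other sites the same bands held 3.21%, 5.23%, 6.18%, 6.56% and 7.14% members. A member that lies near a member counts for both, so the 6 within 5 kb are 3 pairs. The 5 members of the chromosome 11 stretch described below count both at 10 to 50 kb and at 50 to 100 kb. The 2 at 5 to 10 kb are a pair in the same stretch. The shares around members were above those around other sites within 5 kb and from 10 to 100 kb, and close to them at 5 to 10 kb and at 100 to 500 kb. The differences were not tested.

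The neighbours that did not meet the rule also had negative median changes. At 5 to 10 kb from a member, the 28 such sites had a median log2 change of share of -0.32 at 2 h and -0.44 at 4 h. At 10 to 50 kb the 141 sites had -0.22 and -0.25, at 50 to 100 kb the 126 sites had -0.22 and -0.20, and at 100 to 500 kb the 771 sites had -0.11 and -0.12. Within 5 kb there were only 8, with -0.44 and -0.47. At the same distances from other sites the medians lay between -0.09 and 0.03 at 2 h and between -0.08 and 0.08 at 4 h. The median of all other sites was -0.09 at 2 h and -0.07 at 4 h. The sites of the mirrored rule lay close together, with a median distance to the nearest site of 10.8 kb, and they enter the values around other sites. Neighbouring sites share every library, so these are descriptions with no test.

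**Figure D3:**
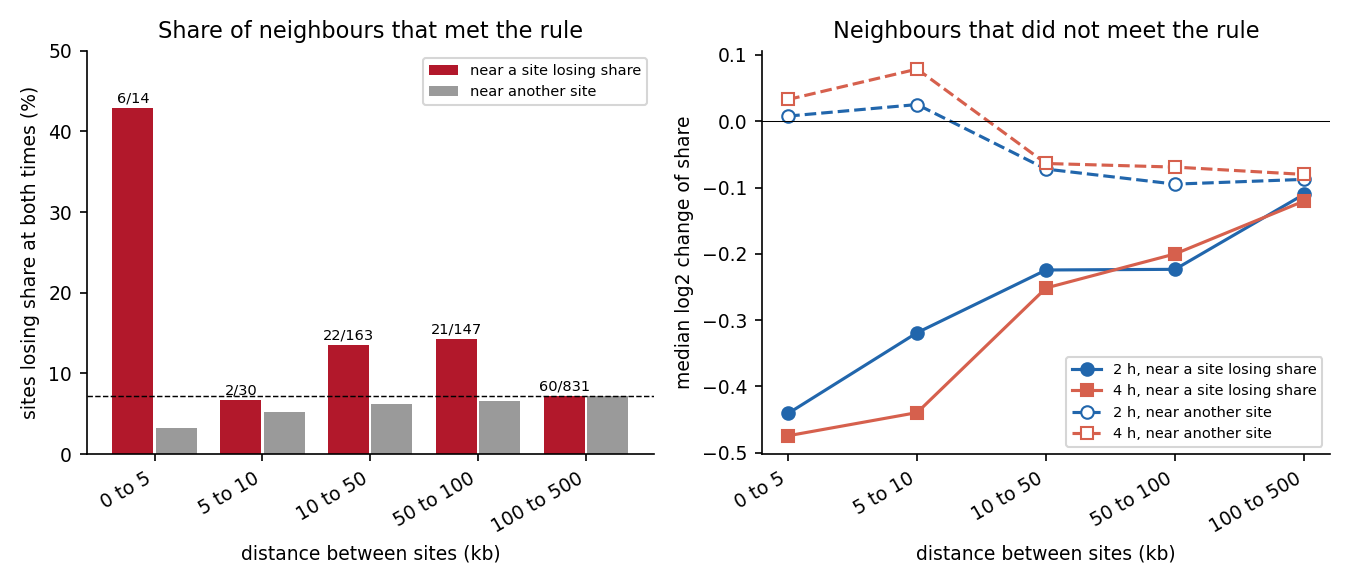
Left, the percent of sites over the count minimum that met the rule, by distance in kb from a site losing share (red, with counts) or from another site (grey); the dashed line is 7.17%. Right, the median log2 change of share of sites that did not meet the rule, by distance from a site losing share (filled) or from another site (open), at 2 h and 4 h; the filled points are -0.44 and -0.47 within 5 kb and -0.11 and -0.12 at 100 to 500 kb.

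There were 4 pairs of members under 10 kb apart and no longer run. The closest pair was on chromosome 4, where chr4:80076451-80076851 lay 1735 bases from chr4:80074716-80075116. It had 100 and 172 counts in the DMSO pair, 30 and 11 in the 2 h pair, and 17 and 15 in the 4 h pair, a 3.87-fold lower share at 2 h and 4.30-fold at 4 h, beside 5.22-fold and 6.07-fold at its partner. On chromosome 2, chr2:105024864-105025264 had 67 and 120 counts in the DMSO pair, 25 and 9 in the 2 h pair, and 13 and 12 in the 4 h pair. Its partner chr2:105027051-105027451, 2187 bases away, had 63 and 143 in the DMSO pair, 27 and 13 in the 2 h pair, and 19 and 15 in the 4 h pair. The chromosome 2 sites were 3.20-fold and 2.78-fold lower at 2 h, and 3.77-fold and 2.96-fold lower at 4 h. The chromosome 11 pair was uneven: chr11:20243136-20243536 had a 1.78-fold lower share at 2 h and 2.79-fold at 4 h, and chr11:20249041-20249441 5.73-fold and 5.47-fold. On chromosome 16, chr16:86802065-86802465 had a 2.27-fold lower share at 2 h and 3.70-fold at 4 h, and chr16:86806090-86806490 2.26-fold and 3.45-fold. Partners thus had close folds in some pairs and not in others.

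Close neighbours could also differ. The site chr4:26567882-26568282 had 57 and 104 counts in the DMSO pair, 23 and 10 in the 2 h pair, and 10 and 16 in the 4 h pair. At 2261 bases from it, chr4:26570143-26570543 had 77 and 162 in the DMSO pair, 104 and 43 in the 2 h pair, and 51 and 49 in the 4 h pair, with log2 changes of share of 0.14 and -0.24. The member's were -1.41 and -1.59. Its share went from 263 CPM with DMSO to 95.6 and 84.0, while that of the neighbour was 383, 422 and 325. The member chr17:27378220-27378620 lay 2522 bases from chr17:27375698-27376098, whose share was 168 CPM with DMSO, 123 at 2 h and 97.6 at 4 h. That neighbour, at -0.44 and -0.76, met the threshold only at 4 h. At chr3:136503386-136503786 the log2 changes were -0.96 and -1.48, and at chr3:136505461-136505861, 2075 bases away, they were -0.51 and -0.67.

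The densest group of members was a stretch of 81.9 kb on chromosome 11, picked after its values were seen. It held 5 members among 6 sites, and no 100 kb window that began at a member outside it held more than 3. The 5 members together had 407 and 698 counts with DMSO, then 202 and 89, then 101 and 100. Every one of the 5 had all treated columns below both DMSO libraries in share, as did 388 of the 393 members. Of all sites over the count minimum, 23.2% did so. The rule makes this nearly certain for members. The site chr11:20249041-20249441 was lowest, with 36 and 47 counts in the DMSO pair, 3 and 4 in the 2 h pair, and 3 and 5 in the 4 h pair. The site chr11:20269589-20269989 had 103 and 182 in the DMSO pair, 35 and 25 in the 2 h pair, and 15 and 26 in the 4 h pair, a relative log2 change at 4 h of -1.68 (SE 0.25, edgeR adjusted p = 1.13e-05). The strongest, chr11:20297944-20298344, had 128 and 238 in the DMSO pair, 73 and 31 in the 2 h pair, and 37 and 41 in the 4 h pair. Within the stretch the members' log2 changes of share at 2 h ran from -2.30 to -0.81. The site inside it that was no member, chr11:20281207-20281607, had log2 changes of share of -0.65 at 2 h and -1.17 at 4 h, and the next site beyond it, chr11:20332222-20332622, had -0.35 and -1.004. Both of these sites outside the rule also had all treated columns below both DMSO libraries in share.

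**Figure D4:**
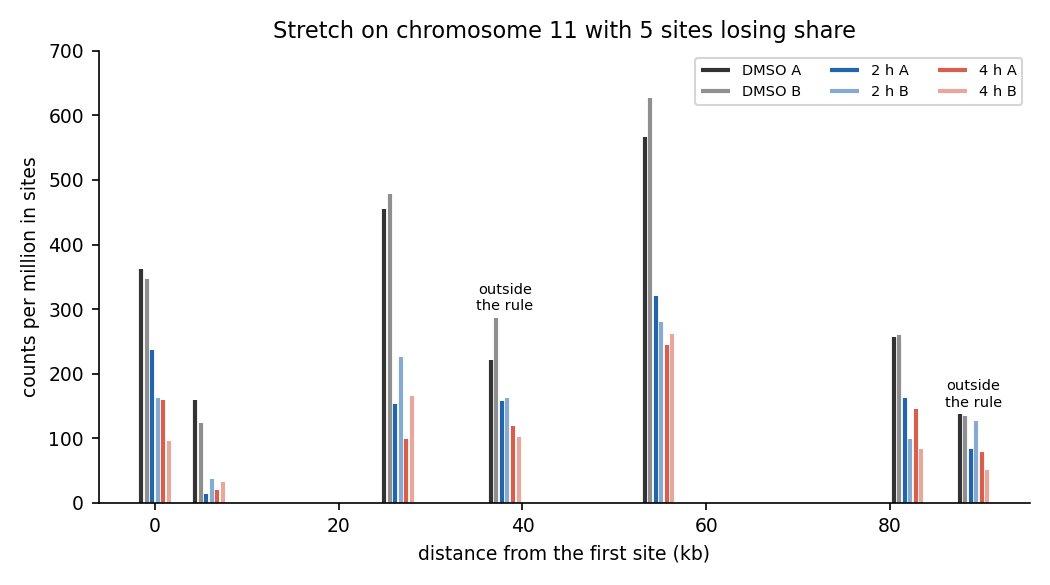
CPM in sites (y axis) in the 6 libraries for the 6 sites of the chromosome 11 stretch and the next site beyond it, by distance in kb from the first site (x axis). Both black DMSO lines stand above the 4 treated lines at the 5 sites that met the rule and at the 2 outside it. The 4 h lines were lowest at the 2 sites outside the rule and at some of the 5.

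The share at 4 h was slightly below that at 2 h over the members. The median log2 ratio of 4 h to 2 h was -0.14, with quartiles of -0.41 and 0.10, against -0.0011 over the other sites (quartiles -0.22 and 0.22). The share was lower at 4 h at 252 of the 393 members (64.1%) and at 50.1% of the other sites. Both 4 h columns lay below both 2 h libraries at 87 members, where 17.2% of all sites over the count minimum did so. Both lay above at 29 members, where 16.4% did so. The difference rests in part on the 2 h library A: without it the median was -0.04 over the members and 0.06 over the others, and 52.7% and 44.2% were lower at 4 h. Without the 2 h library B the medians were -0.19 and -0.05.

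**Figure D5:**
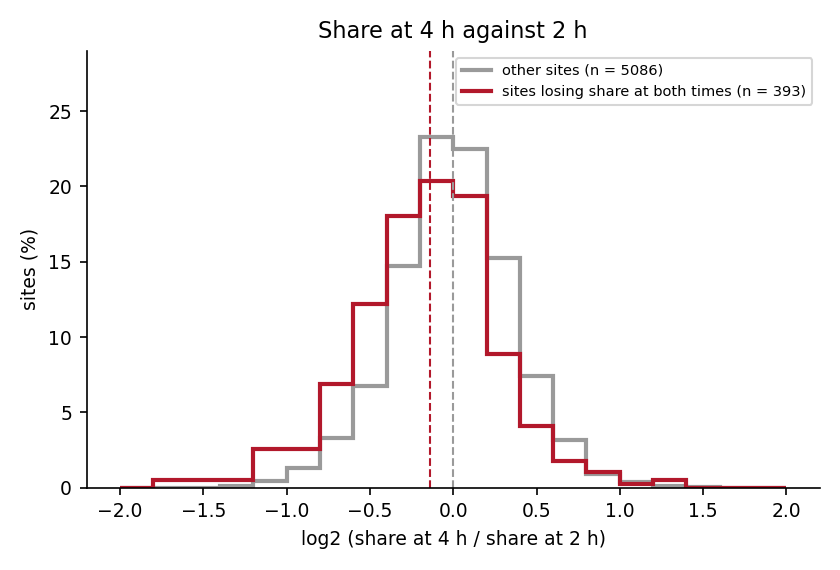
Percent of sites (y axis) by log2 ratio of the share at 4 h to that at 2 h (x axis, bins of 0.2), red for the 393 sites losing share at both times and grey for the 5086 others; dashed lines are the medians, -0.14 and -0.0011. The red curve is shifted to the left by less than a bin and overlaps the grey one throughout.

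No member passed the test of 4 h against 2 h. This edgeR test, which took the rule's columns but not its contrast, gave 0 calls among 387 members and 0% of all 5575 tested sites. At an unadjusted p under 0.05 it gave 24 members lower and 2 higher at 4 h, against 172 and 149 over all tested sites. DESeq2 and limma-voom gave 0 calls as well. At an unadjusted p under 0.05 DESeq2 gave 3 members lower and 0 higher, against 19 and 10 over all tested sites. For limma-voom these were 15 and 2 members, against 139 and 161 over all tested sites. At 290 members (73.8%) the log2 ratio lay within 0.5 of 0, against 84.5% of the other sites. It was at or below -1 at 16 members and at or above 1 at 3, against 32 and 30 of the 5086 other sites. Members had lower median shares than the other sites at both times, and the part of counting noise in this was not tested.

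The 4 members with the lowest share at 4 h against 2 h were left with few reads at 4 h. At chr2:227549336-227549736 there were 33 and 56 counts with DMSO, 20 and 8 at 2 h and 3 in both columns at 4 h. At chr4:148932970-148933370 the DMSO pair had 21 and 27 reads and the 2 h pair 9 and 3, with a single read in both columns at 4 h. At chr1:204896936-204897336 there were 51 and 92 in the DMSO pair, 24 and 18 in the 2 h pair, and 6 and 7 in the 4 h pair, and at chr16:20731237-20731637 26 and 63, then 11 and 8, then 3 and 3. The log2 ratios of the share at 4 h to that at 2 h were between -1.80 and -1.42 at these 4 sites. Both 4 h columns lay below both 2 h libraries at each, where 17.2% of all sites over the count minimum did so. The sites were chosen by this ratio, which makes that order likely. The edgeR adjusted p of 4 h against 2 h was 0.67 at chr2:227549336-227549736 and at chr1:204896936-204897336, and 0.84 at the remaining 2.

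The opposite order was seen at few members. At chr8:72515578-72515978 there were 44 and 73 counts in the DMSO pair, 5 and 3 in the 2 h pair, and 5 and 15 in the 4 h pair. Its share was 193 ± 1.81 CPM with DMSO, 24.5 ± 3.72 at 2 h (SD, n = 2 each) and 64.3 at 4 h, and its log2 ratio of 4 h to 2 h was 1.23 (edgeR adjusted p = 0.84 for the relative change). The 4 h columns, at 33.0 and 95.6 CPM, lay above both 2 h libraries and below both DMSO libraries. The site was chosen by that ratio and by the rule, which makes this order likely. At chrX:10801525-10801925 the counts were 13 and 25, then 4 and 0, then 6 and 3, and at chr1:235877491-235877891 16 and 20, then 4 and 1, then 2 and 8. At chr10:100817616-100818016 they were 15 and 47, then 11 and 0, then 9 and 7. The edgeR adjusted p of 4 h against 2 h was between 0.94 and 0.96 at these 3 sites.

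The members nearest the threshold differed little from the sites just outside it. Just inside were chr8:28257984-28258384 (log2 change of share -0.75 at 2 h and -1.26 at 4 h), chr8:98854001-98854401 (-0.94 and -0.75) and chr16:68824192-68824592 (-0.89 and -0.76). Just outside were chr11:22501490-22501890 (-0.75 and -0.84), chr16:16098187-16098587 (-0.75 and -1.29) and chr1:183079605-183080005 (-0.75 and -1.04). The first of these had 40 and 63 counts in the DMSO pair, 27 and 9 in the 2 h pair, and 12 and 17 in the 4 h pair. All 4 treated columns lay below both DMSO libraries in share at 388 of the 393 members, where 23.2% of all sites over the count minimum did so. The rule used those columns, so the count is no separate result.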

How the data were processed

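The authors deposited 1 table of raw read counts per site, with no normalization. Tools named in the submitters' processing notes are Trimmomatic 0.32, Bowtie2, Genrich 0.6.1, deepTools, DiffBind and DESeq2, and the build is hg19; settings, duplicate removal and how sites were chosen are not given there. The 6 columns were mapped by treatment, and their letters are not tied to replicate numbers. Only the crosslinked DMSO group has 2 samples, so both DMSO columns were taken as that group. The library without crosslinking, nearby genes and site sequences were not analysed here. Coordinates are as in the file and may be off by 1 base.

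Members and tests were chosen with earlier results of these data known. Sites passing filterByExpr (count 10, total 15) numbered 5575 and were fitted in edgeR 4.0.16 (R 4.3.3) by quasi-likelihood with TMM, all 6 columns in 1 fit with 3 residual degrees of freedom and a Benjamini-Hochberg threshold of 0.05; the 4 h columns entered as separate libraries, and as 1 in an alternative. The SE is the log2 change over the square root of F. The fit was also run on simulated counts with the same spread at all sites, which cannot show how it behaves on these libraries. Alternatives included DESeq2 1.42.0, limma-voom (version 3.58.1), other scalings and settings of the rule, a replicate block and left-out libraries.

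Named members were the 5 with the highest DMSO share, the 8 with the lowest mean log2 change, the 4 lowest and 4 highest in 4 h against 2 h, 3 sites on each side of the threshold, the first 3 pairs under 10 kb apart and the 3 with the nearest other site. The last pair, the chromosome 11 stretch and its sites outside that rule were added after their values were seen.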

Additional observations from a re-analysis of the deposited data

How the results depend on the processing

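The number of members (393) was 759 at a threshold of -0.5, 190 at -1 and 2910 scaled on the 20 highest sites; it ranged from 372 to 443 leaving out 1 library, and between 315 and 351 of the 393 then remained. Calls of members at 2 h (201) became 10 with DESeq2, 112 with the replicate block, 54 with no scaling and 131 on the scale of the 20 highest sites, and ranged from 56 to 209 leaving out 1 library. Calls at 4 h (260) became 30 with DESeq2 and ranged from 132 to 284 leaving out 1 library; with the replicate block they were 214. Counting the 4 h columns as 1 library gave 208 members at 2 h and 238 at 4 h. Calls over all tested sites also fell with DESeq2 and with the replicate block at both times. The cause was not tested. Where 1 library was left in a group, it was assumed to vary like the others. Libraries with the same letter did not deviate together (r of the log2 difference, A minus B, over sites -0.168, 0.00909 and -0.00973). Members with another site within 1 kb, 50 kb and 100 kb were 0%, 39.7% and 54.2%, against 10.7% within 10 kb, as the distance sets. The median log2 ratio of 4 h to 2 h (-0.14) ranged from -0.19 to -0.04 leaving out 1 library. For the 28 named members, 632 of the alternative values stayed on their side of the threshold, 64 fell short of it, 24 passed it and 0 turned direction, which the choice of members makes likely. With 7 to 16 reads at the median member after treatment, single ratios of 4 h to 2 h are imprecise.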
